A study of Mus musculus with 30 samples.

Results

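The regions described here are the 1753 EPOP-Suz12 regions of mouse embryonic stem cells that overlapped no Elongin B (EloB) region and held no Jarid2 peak, with or without EPOP knock-down. They were 30.6% of the 5720 EPOP regions and 40.1% of the 4374 EPOP-Suz12 regions without EloB. An EPOP, Suz12 or EloB region was a stretch of merged peaks that held a peak of both lists without knock-down. A member was an EPOP region that overlapped a Suz12 region by at least 1 bp and overlapped neither an EloB region nor a peak of either Jarid2 list. They are called Jarid2-free regions here, in the sense that no Jarid2 peak was called on them. Thus 8 lists chose the regions, namely those of EPOP, Suz12 and EloB without knock-down and both of Jarid2, and their values are given as a description. The other 12 lists, 8 of them of Suz12, H3K27me3 and H3K4me3, had no part in the choice.

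EPOP (C17orf96) is a protein that binds Polycomb repressive complex 2 (PRC2), the enzyme complex that places trimethyl marks on lysine 27 of histone H3 (H3K27me3). Suz12 is a core subunit of PRC2, found wherever the complex sits. Jarid2 and EPOP are accessory subunits that belong to different PRC2 assemblies, and EloB is a subunit of the elongin complex that EPOP also binds. In embryonic stem cells PRC2 sits mostly at CpG-rich promoters, many of which carry H3K4me3, a mark of promoters, beside H3K27me3. Such promoters are called bivalent.

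The cells were E14Tg2A, an established mouse embryonic stem cell line, grown without feeder cells in 20% serum with LIF. EPOP was depleted by lentiviral short hairpin RNA with 2 days of puromycin selection, and EloB by small interfering RNA with harvest 48 h after the first transfection. The series has 30 samples, of which 20 ChIP-seq samples entered as peak lists; the 9 RNA samples and 1 IgG sample did not enter. For EPOP and EloB there were 2 lists from cells without knock-down and 2 from EPOP-depleted cells, each replicate with its own antibody or antibody lot. For Suz12 and H3K4me3 there were also 2 from cells without knock-down, and 1 each from EPOP-depleted and EloB-depleted cells. For H3K27me3 and Jarid2 there was 1 list from cells without knock-down and 1 from EPOP-depleted cells, with no replicate. By file header the H3K27me3 list of EPOP-depleted cells is named for a differently numbered hairpin than the other lists, which the labels do not explain. EloB ChIPs had an additional protein crosslinking step. Whether replicates came from separate cultures is not given in the labels, and the spread between lists may be technical. EPOP knock-down replicate 1 is described in its label as an IgG ChIP, and the IgG sample as an EPOP ChIP, while titles and antibodies give the reverse. Titles were followed here.

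Read depth is unknown, so all values concern called peaks: their presence, their width and the authors' score, which was at least 50 in every list. The 20 lists held between 108 and 47296 peaks. Scores are given as values, and no change between lists is read from them. No p-value is given, because 2 lists against 2, or 2 against 1, cannot go below p = 0.333 in an exact permutation test over lists, and 1 list against 1 allows no test. Shares carry Wilson 95% intervals, which cover the counting of regions and not the spread between cultures. For reference, the same values are given for 1050 EPOP-Suz12 regions without EloB that held a Jarid2 peak only upon EPOP knock-down (Jarid2-gaining regions). They are also given for the 1571 that held one without knock-down (Jarid2 regions). These classes differ in peak strength, and no difference between classes was tested.

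The Jarid2-free regions were the narrower and lower-ranking part of the EPOP-Suz12 regions. Their width had a median of 1839 bp, with quartiles of 1452 and 2313 bp and a range of 415 to 8498 bp. The median was 2109.5 bp in Jarid2-gaining and 2556 bp in Jarid2 regions, and 1386 bp in the 852 Suz12 regions that overlapped no EPOP region. The latter lack a region of both EPOP lists, yet 612 (71.8%) held a peak of EPOP replicate 1 and 104 (12.2%) one of replicate 2. They are called Suz12 regions without a shared EPOP region here. Ranked within each list, the EPOP peaks of Jarid2-free regions lay at a median percentile of 59.9 in replicate 1 and 34.0 in replicate 2. The corresponding values were 73.3 and 54.3 in Jarid2-gaining and 84.5 and 74.3 in Jarid2 regions. The Suz12 peaks of Jarid2-free regions lay at 40.0 and 42.6, against 62.3 and 63.9 in Jarid2-gaining and 99.3 and 80.3 in Jarid2 regions. These ranks come from lists that chose the regions.

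Most of the regions were isolated from Jarid2, and a minority lay beside it. The distance to the nearest Jarid2 peak of either list had a median of 119304 bp (quartiles 28483 and 308036 bp), and the nearest other EPOP region lay at a median of 57627 bp. Within 1 kb of a Jarid2 peak lay 59 regions, 209 lay at 1 to 10 kb, 548 at 10 to 100 kb and 937 farther away. The member closest to the boundary of the rule, chr17:35576788-35577393 (mm9), lay 3 bp from a Jarid2 peak, and the next, chr3:128928930-128930888, lay 33 bp from one. Just outside the rule were chr13:83864394-83866013 and chr7:77512293-77513214, with an overlap of 18 and 42 bp with a Jarid2 peak. EPOP scored 70.0 and 52.0 in the 2 lists without knock-down at the first of the pair inside the rule and 107 and 191 at the other. It scored 232 and 136, and 50.1 and 85.0, at the pair outside.

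EPOP peaks at these regions were nearly absent upon EPOP knock-down. In the lists without knock-down EPOP peaks covered 3368 and 2451 kb within the regions. Upon EPOP knock-down they covered 0.722 kb in replicate 1 and 8.55 kb in replicate 2. A peak was left on 2 of the 1753 regions in replicate 1 (0.114%) and on 11 in replicate 2 (0.627%). Over all 5720 EPOP regions the shares were 0.839% and 8.88%. Both knock-down lists lay far below both lists without knock-down, with a log2 ratio of mean covered length of −9.29, and −10.18 as a mean of ratios within replicate numbers. Because the lists without knock-down chose the regions, a fall was built into this contrast in part. EloB peaks of a single list, which the rule allows, lay on 5 regions in replicate 1 and 4 in replicate 2, 9 in all. Neither EloB list upon EPOP knock-down had a peak on any of the 1753 (Wilson 95% upper limit 0.219%). Over all EPOP regions these lists had a peak on 2 and 3 of 5720 (0.035% and 0.052%), and the members were chosen for lacking EloB regions, so nothing is read from this value.

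Suz12, the core PRC2 subunit, was still called at nearly all of the regions in both knock-downs. A Suz12 peak was present at 1699 of 1753 upon EPOP knock-down (96.9%). In EloB-depleted cells it was present at 1695 (96.7%). No peak was called at 54 and 58 regions (3.08%, Wilson 95% interval 2.37 to 4.00, and 3.31%, 2.57 to 4.25), against 1.05% and 1.3% of the 5135 EPOP regions with Suz12. All 54 EPOP-Suz12 regions without a Suz12 peak upon EPOP knock-down were Jarid2-free, while Jarid2-gaining regions, Jarid2 regions and EPOP regions with EloB kept theirs at 1050 of 1050, 1571 of 1571 and 761 of 761. Upon EloB knock-down 58 of 67 such regions were Jarid2-free, with 4 Jarid2 regions and 5 EPOP regions with EloB.

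The regions that lacked a Suz12 peak in a knock-down list ranked low in the lists without knock-down. The 54 had median Suz12 percentiles of 26.0 and 18.7, against 40.3 and 43.1 for the 1699 that kept a peak. For the 58 upon EloB knock-down these were 13.4 and 27.9, against 40.6 and 43.0. H3K27me3 was nonetheless found without knock-down at 38 of the 54 (70.4%) and at 39 of the 58 (67.2%). With peaks scoring at least 100 in every list, which left 1428 Jarid2-free regions, 26 lacked Suz12 in EPOP-depleted and 19 in EloB-depleted cells. At that threshold the counts were 0 and 0 of 947 Jarid2-gaining regions, and 0 and 7 of 1276 Jarid2 regions.

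Among the 54, 4 of the 5 with the highest Suz12 rank held a Suz12 peak on the EPOP region itself in replicate 1 alone of the lists without knock-down, so their rank rests on 1 list, as in 21 members in all. At chr7:25733263-25734653, 2131 bp from Jarid2, Suz12 scored 3100 in replicate 1 without knock-down and had no peak in replicate 2. It scored 365 in EloB-depleted cells and had no peak in EPOP-depleted cells. H3K27me3 at the same place scored 282 over 2461 bp without and 2189 over 7270 bp with EPOP knock-down. A Suz12 peak was thus absent in the condition in which the H3K27me3 peak was the wider one. It was also absent in replicate 2 without knock-down, by header name the hairpin control, so no loss upon EPOP knock-down is read from this region. Upon EloB knock-down a missing region was chr11:96189886-96192652, 259 bp from Jarid2. Its Suz12 scores were 2633 and 73.5 without knock-down and 110 in EPOP-depleted cells. The score of 2633 belonged to a peak of 87683 bp that extended far beyond the region of 2767 bp, and that of 73.5 to a peak of 1152 bp. The H3K27me3 peak of 358 there without knock-down had no counterpart upon EPOP knock-down.

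In EPOP-depleted cells the median width ratio of Suz12 peaks at the regions stayed within the gap between the lists without knock-down. In EloB-depleted cells Suz12 peaks were wider by median ratio than in both lists, though only slightly wider than in replicate 1. By the names in their file headers, replicate 1 is the control of small interfering RNA and replicate 2 that of the hairpin. Replicate 2 was narrower than replicate 1 by a median log2 ratio of −0.41. With EPOP depleted the median was 0.14 against replicate 2, its control by name, and −0.25 against replicate 1. Upon EloB knock-down it was 0.027 against replicate 1, its control by name, and 0.45 against replicate 2. Over all EPOP regions the medians against replicates 1 and 2 were 0.029 and 0.49 upon EloB and −0.29 and 0.13 upon EPOP knock-down. Nothing particular to Jarid2-free regions is read from these widths.

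**Figure D1:**
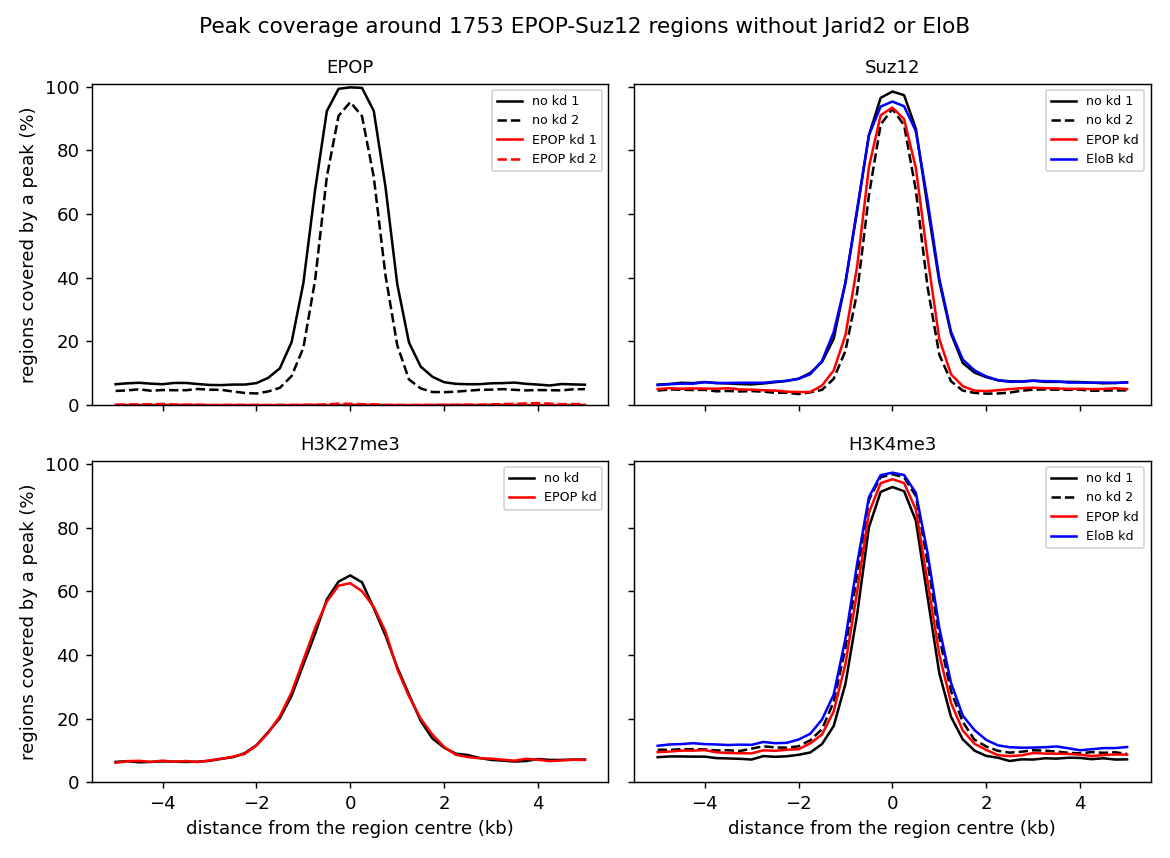
Share of the 1753 Jarid2-free regions covered by a peak (y axis, percent) against the distance from the region centre (x axis, kb), for EPOP, Suz12, H3K27me3 and H3K4me3. Each line is 1 list (kd, knock-down), and the EPOP lines upon EPOP knock-down lie near 0 while the Suz12 lines stay above 93.0% at the centre and the H3K27me3 lines of both conditions nearly coincide.

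H3K27me3, the mark that PRC2 places, was the readout in which these regions stood lowest. Without knock-down 1350 of 1753 held an H3K27me3 peak (77.0%, Wilson 95% interval 75.0 to 78.9). The share was 89.9% in Jarid2-gaining regions, 96.5% in Jarid2 regions and 46.0% in Suz12 regions without a shared EPOP region. At the region centre the mark covered 65.0% of Jarid2-free, 78.7% of Jarid2-gaining and 88.9% of Jarid2 regions.

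Upon EPOP knock-down the share of Jarid2-free regions with H3K27me3 was 74.4% (72.4 to 76.4), or 1305 regions, while it was 95.2% in Jarid2-gaining and 98.3% in Jarid2 regions. Peaks differed between the 2 lists in both directions, with no replicate to give their spread. By header name the hairpin of the H3K27me3 knock-down list also differs in number from that of the Jarid2 knock-down list. The peak was kept at 1130 of 1350 regions (83.7%, 81.6 to 85.6) and missing at 220 (16.3%, where 8.37% was the share over all EPOP regions). A new peak was called at 175 of the 403 without one (43.4%, against 38.4% over all EPOP regions), and 228 regions had none in either list. The share of new peaks was near that of all EPOP regions, which include EPOP regions outside Suz12, and the share of missing peaks above it. In Jarid2-gaining regions 82 peaks were new and 24 regions had none in either list. These counts were 43 and 12 in Jarid2 regions, and 42 and 285 in EPOP regions outside Suz12. The share of new peaks was thus lower in Jarid2-free regions than in Jarid2-gaining and Jarid2 regions. Jarid2-gaining regions kept H3K27me3 at 918 of 944 and Jarid2 regions at 1501 of 1516.

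The direction of the net value for Jarid2-free regions depended on the score threshold. With peaks scoring at least 100 in every list the share went from 70.6% without to 78.2% with knock-down, and with the longer H3K27me3 list shortened to the length of the other it went from 74.2% to 74.4%. In those settings and in the 10 others tried, Jarid2-free regions kept the smallest share of their H3K27me3 peaks among the 3 classes.

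**Figure D2:**
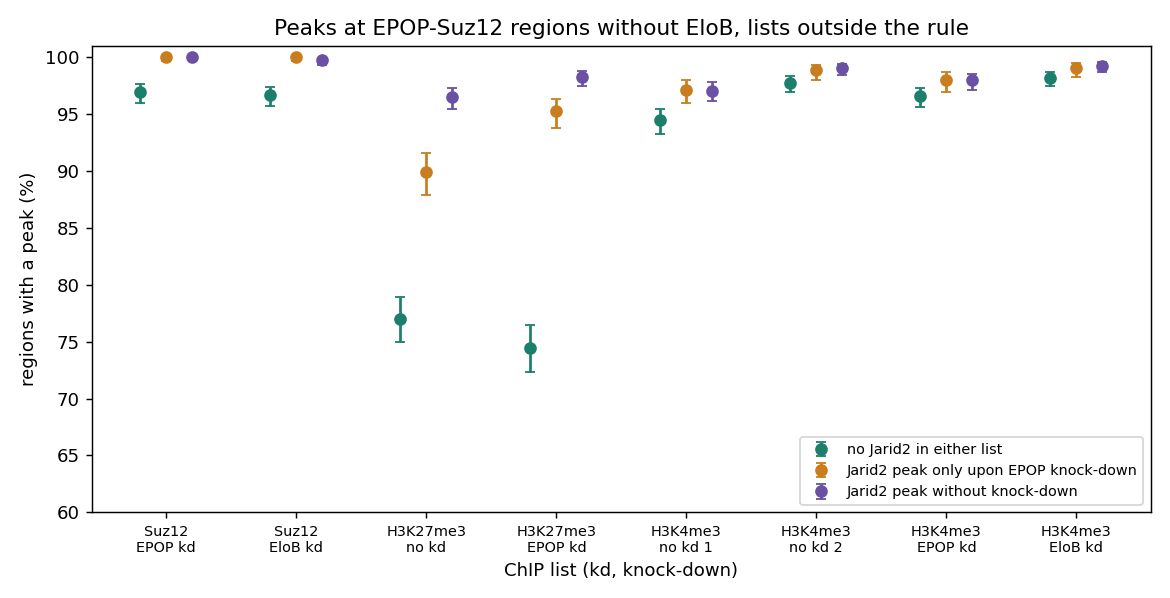
Share of regions with a peak (y axis, percent, from 60) in the 8 lists of Suz12, H3K27me3 and H3K4me3 that did not choose the regions (x axis; kd, knock-down), for Jarid2-free, Jarid2-gaining and Jarid2 regions. Points are shares and bars Wilson 95% intervals; in the H3K27me3 lists the Jarid2-free regions lie at 77.0% and 74.4%, under both other classes.

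The regions that held H3K27me3 in 1 condition alone had lower median scores than those with it in both. The median score without knock-down was 80.7 where the peak was missing upon knock-down and 146 where it was kept. The median score upon knock-down was 94.6 where the peak was new and 175 where it was kept. Median EPOP percentiles in the 2 lists without knock-down were 62.6 and 38.3 at regions with H3K27me3 in both conditions. They were 56.5 and 29.4 at those with it without knock-down only, 55.4 and 26.4 at those with it upon knock-down only, and 52.7 and 22.2 at those with neither. Of the 228 with neither, 27 lay within 1000 bp of an H3K27me3 peak and the median distance to one was 55290.5 bp.

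The regions without H3K27me3 in either list were not without PRC2 or H3K4me3. Suz12 was called at 93.9% of the 228 in EPOP-depleted and at 92.5% in EloB-depleted cells, and H3K4me3 at 97.8% and 100% in the lists without knock-down. One example was chr5:75970183-75972262, which scored 412 and 155 for EPOP and 1265 and 419 for Suz12 without knock-down. Its Suz12 peak scored 579 in EPOP-depleted and 1774 in EloB-depleted cells, and H3K4me3 scored 3100 in all 4 lists.

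Where the H3K27me3 peak was kept, its median width hardly differed between the conditions over all Jarid2-free regions. The median log2 ratio of summed peak width, EPOP knock-down over none, was 0.040 (quartiles −0.29 and 0.46), against 0.18 in Jarid2-gaining, 0.28 in Jarid2 and 0.21 in all EPOP regions. Of the 1130 regions, 220 (19.5%) were wider by at least 1.5-fold, where 23% of all EPOP regions were, and 137 (12.1%) were narrower by as much, where 5.63% were. The share of wider regions was near that of all EPOP regions and the share of narrower ones was above it.

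Length covered by H3K27me3 within 5 kb of the region centre gave the same picture without the requirement of a peak in both lists. The mean over Jarid2-free regions was 1946 bp without and 1949.6 bp with EPOP knock-down, and 784 regions had more and 777 less. In Jarid2-gaining regions it went from 2523 to 2951 bp (688 more, 343 less), and in Jarid2 regions from 3626 to 4324 bp (1224 more, 328 less). The log2 ratio of means was 0.0025, 0.23 and 0.25 in the 3 classes. With peaks scoring at least 100 it was 0.20, 0.36 and 0.30, so the near-equality at Jarid2-free regions did not hold with that threshold, which was applied to every list and left 1428 such regions. The place of Jarid2-free regions as the lowest of the 3 classes over all their regions did not change in the 12 settings tried.

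**Figure D3:**
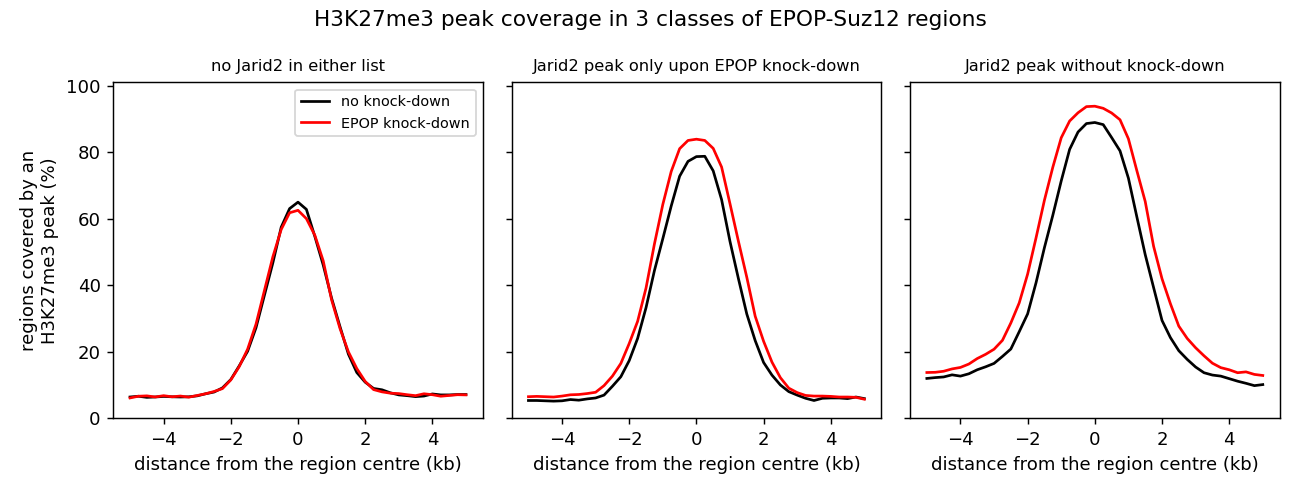
Share of regions covered by an H3K27me3 peak (y axis, percent) against distance from the region centre (x axis, kb) in the 3 classes, without (black) and with EPOP knock-down (red), 1 list each. The lines nearly coincide in Jarid2-free regions, while at the centre the knock-down line is at 83.9% against 78.7% in Jarid2-gaining and at 93.8% against 88.9% in Jarid2 regions.

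Because Jarid2-free regions ranked lower for EPOP, the 3 classes were set side by side within quartiles of the mean EPOP percentile of all 4374 regions. The quartiles held 909, 592, 225 and 27 Jarid2-free regions. Without knock-down the H3K27me3 shares of the classes were close from the second quartile up. In the lowest quartile, which held 51.9% of Jarid2-free regions, theirs was under the others, with overlapping intervals. In the second quartile the mark lay on 85.0% of Jarid2-free (81.9 to 87.6), 85.8% of Jarid2-gaining (81.7 to 89.0) and 86.7% of Jarid2 regions (80.3 to 91.2). In the third quartile the shares were 94.2%, 94.6% and 96.3%. In the lowest they were 66.9% (63.8 to 69.9), 75.9% (68.2 to 82.2) and 79.5% (65.5 to 88.8).

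Upon EPOP knock-down the classes were apart at like EPOP rank in the lower part of the scale. In the lowest quartile H3K27me3 lay on 64.4% of Jarid2-free (61.2 to 67.4), 88.7% of Jarid2-gaining (82.4 to 92.9) and 93.2% of Jarid2 regions (81.8 to 97.7). In the second quartile the shares were 81.1% (77.7 to 84.0), 91.7% (88.4 to 94.2) and 92.7% (87.3 to 95.9). In the third they were 94.7%, 98.8% and 99.3%, and in the highest 100%, 100% and 98.9%. The median log2 width ratio was between −0.075 and 0.065 in the 4 quartiles of Jarid2-free regions, between 0.083 and 0.38 in Jarid2-gaining and between 0.27 and 0.43 in Jarid2 regions. EPOP rank within a quartile was not equal, since the median percentile in the lowest was 35.6 in Jarid2-free and 40.4 in Jarid2-gaining regions. The Jarid2-gaining class was chosen by a Jarid2 list of the knock-down condition, and whether that list and the H3K27me3 list upon knock-down share a difference in yield was not tested.

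**Figure D4:**
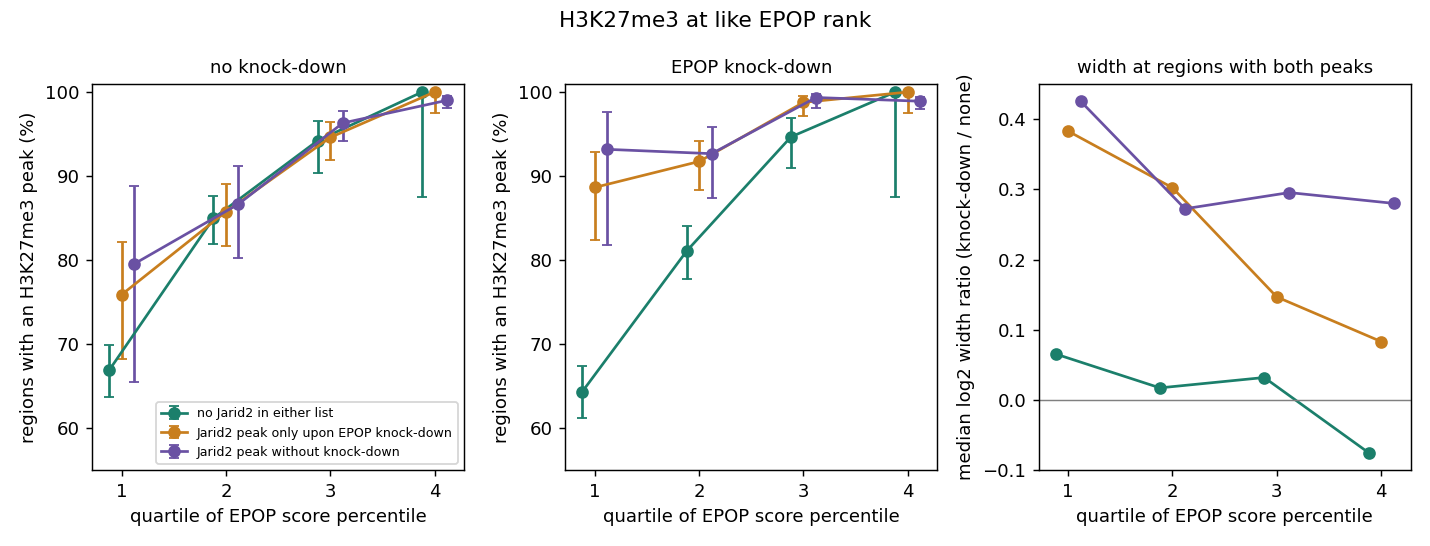
H3K27me3 at the 3 classes within quartiles of EPOP rank (x axis, 1 lowest): share of regions with a peak without knock-down (left, percent) and upon EPOP knock-down (middle, percent), with Wilson 95% intervals, and median log2 width ratio at regions with both peaks (right). Without knock-down the lines run together from the second quartile up, and upon knock-down Jarid2-free regions lie at 64.4% in the lowest quartile, under 88.7% and 93.2% in the other classes.

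Within quartiles of Suz12 region width the share of Jarid2-free regions was the lowest of the 3 classes in each, already without knock-down. H3K27me3 lay on 69.7%, 83.3%, 86.1% and 84.2% of Jarid2-free regions from the narrowest to the widest quartile. It lay on 82.2%, 89.9%, 91.6% and 93.5% of Jarid2-gaining and 87.9%, 94.8%, 96.9% and 97.5% of Jarid2 regions. The Wilson 95% intervals of Jarid2-free and Jarid2-gaining regions overlapped in the second quartile (79.77 to 86.32 and 86.26 to 92.64). They also overlapped in the third (80.9 to 90.1 and 88.2 to 94.1). Upon EPOP knock-down the shares were 64.2%, 81.9%, 86.1% and 90.1% in Jarid2-free, 89.3%, 96.2%, 95.5% and 98.0% in Jarid2-gaining, and 93.1%, 96.8%, 99.3% and 98.5% in Jarid2 regions. The median log2 width ratio of H3K27me3 in the same order was −0.039, 0.070, 0.031 and 0.34 in Jarid2-free regions. It was 0.27, 0.17, 0.16 and 0.17 in Jarid2-gaining and 0.28, 0.19, 0.26 and 0.34 in Jarid2 regions. In the widest quartile, of 171 Jarid2-free regions, their ratio was thus above that of Jarid2-gaining and like that of Jarid2 regions, unlike in the 3 others.

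Position relative to Jarid2 divided the Jarid2-free regions in width of Suz12, in H3K4me3 and in H3K27me3 upon knock-down. The Suz12 regions they lay on had a median width of 5992 bp where Jarid2 was under 1 kb away, 2123 bp at 1 to 10 kb, 1688 bp at 10 to 100 kb and 1733 bp beyond. H3K27me3 without knock-down was found at 76.3%, 87.1%, 77.9% and 74.3% in these bins, and upon EPOP knock-down at 89.8%, 86.1%, 73.4% and 71.5%. Only in the nearest bin, of 59 regions, was the share upon knock-down the higher one, and there the intervals of both conditions overlapped (64.0 to 85.3 and 79.5 to 95.3). The median log2 width ratio was 0.54, 0.16, −0.034 and 0.0062.

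The isolated regions, at 10 kb or more from Jarid2, made up 1485 of the 1753. Their H3K27me3 within 5 kb of the centre covered 1601 bp without and 1527 bp with EPOP knock-down, with more in 609 and less in 687. In the 268 regions under 10 kb from Jarid2 it covered 3857 and 4291 bp, with more in 175 and less in 90. At the main setting, near-equality over all Jarid2-free regions was therefore the sum of a slightly lower value at isolated regions and a higher one beside Jarid2. The log2 ratio of means was −0.068 at isolated regions, and this split was not repeated at other settings. Over all Jarid2-free regions the ratio went from 0.0025 to 0.057 with lists of equal length and to 0.20 with scores of at least 100. Whether the lower value at isolated regions holds in those settings was not tested. A peak that touches several regions counts for each, so neighbouring regions are not separate measurements.

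**Figure D5:**
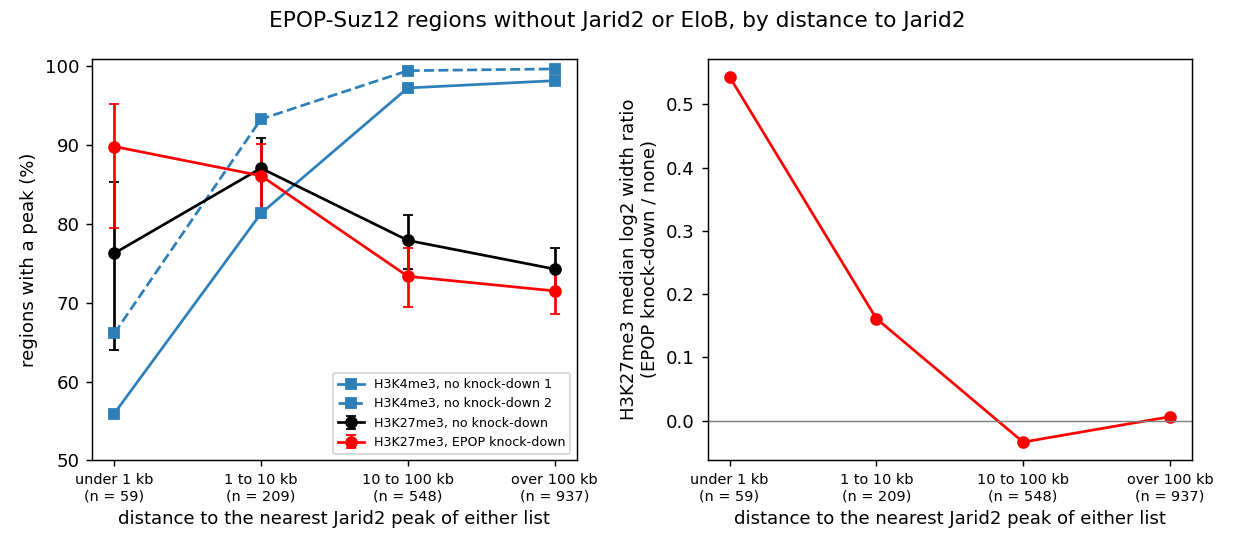
Jarid2-free regions by distance to the nearest Jarid2 peak of either list (x axis). Left, share with an H3K27me3 peak (black, no knock-down; red, EPOP knock-down; bars, Wilson 95% intervals) and with an H3K4me3 peak in each list without knock-down (blue), in percent from 50; right, median log2 ratio of H3K27me3 width, which goes from 0.54 in the nearest bin to 0.0062 in the farthest.

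The highest H3K27me3 scores among the Jarid2-free regions came from peaks that touched regions beside Jarid2. At the 5 regions with the highest score without knock-down these peaks were 6021 to 10997 bp wide, on regions of 1098 to 2221 bp. The peaks thus extended beyond the regions, which lay 119 to 1446 bp from a Jarid2 peak. At chr2:9792578-9794798, 188 bp away, H3K27me3 scored 1418 over 7073 bp without and 1613 over 20764 bp with EPOP knock-down. Suz12 there scored 3100 in all 4 lists, and H3K4me3 had a peak, of 80.5, only upon EloB knock-down. The reverse was seen at chr11:96224578-96225675, 262 bp away, where H3K27me3 scored 917 over 6021 bp without and 52.2 over 1049 bp with knock-down. At chr7:146764010-146765997, 119 bp away, an H3K27me3 peak of 828 had no counterpart upon knock-down.

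The 5 regions of highest EPOP rank had both H3K4me3 and H3K27me3, as had 72.5% of Jarid2-free regions. Of the 5, 4 lay over 100 kb from Jarid2, where 53.5% of Jarid2-free regions lay. The median EPOP percentile was 37.6, 45.2, 45.2 and 46.5 from the nearest to the farthest bin of distance to Jarid2. No link of EPOP rank with distance is read from the 5 regions. The highest in rank was chr11:97912247-97915427, 3181 bp wide and 266381 bp from a Jarid2 peak. EPOP scored 559.6 and 868 without knock-down and had no peak in either knock-down list. Suz12 scored 1838 and 1025 without knock-down, 1637 in EPOP-depleted and 1884 in EloB-depleted cells. H3K4me3 scored 3100 in all 4 lists. H3K27me3 scored 244 over 2459 bp without and 92.1 over 1692 bp with EPOP knock-down. An EloB peak of 83.8 was called in replicate 2 alone.

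At the next of these regions, chr9:49147449-49149922, EPOP scored 537 and 853 without knock-down and again had no knock-down peak. H3K27me3 there scored 259 and 255 without and with knock-down, over 1767 and 1430.0 bp. At chr4:43535345-43538075 EPOP scored 638 and 662, and H3K27me3 scored 346 over 2579 bp without and 444 over 3029 bp with knock-down. An EPOP peak was left in knock-down replicate 2 at chrX:166434594-166436272 (score 59.5) and chr13:54849746-54852688 (67.5), which also belong to these 5. The 5 regions of highest EPOP rank kept Suz12 and H3K27me3 peaks in every list of those targets, while H3K27me3 width was lower upon knock-down in 3 and higher in 2.

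H3K4me3, the promoter mark, lay on nearly all Jarid2-free regions in every list. A peak was found at 94.5% (Wilson 95% interval 93.3 to 95.4) and 97.7% (96.9 to 98.3) in the lists without knock-down, 96.6% in EPOP-depleted and 98.2% in EloB-depleted cells. Over all EPOP regions the shares in the same lists were 95.9%, 98.3%, 97.4% and 98.7%, so the Jarid2-free regions were near the background in this mark. The value upon EPOP knock-down lay between those of the lists without knock-down, and that upon EloB knock-down above both. Of 1656 regions with a peak in both lists without knock-down, 1654 kept it in EPOP-depleted and 1655 in EloB-depleted cells. Peaks were missing at 0.182% and 0.0547% of all EPOP regions so tested.

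Both marks together, the bivalent state, were found at 1271 Jarid2-free regions without knock-down (72.5%, Wilson 95% interval 70.4 to 74.5), counting H3K4me3 where both lists had it. H3K4me3 alone was found at 385 (22.0%), H3K27me3 alone at 79 (4.51%) and neither at 18 (1.03%). The bivalent share was 87.2% in Jarid2-gaining, 93.7% in Jarid2 regions and 41.0% in Suz12 regions without a shared EPOP region. H3K4me3 alone was found at 9.90% of Jarid2-gaining and 3.31% of Jarid2 regions. The Jarid2-free regions thus lay between the Suz12 regions without a shared EPOP region and the other EPOP-Suz12 regions in their share of both marks. A peak in all 8 lists of Suz12, H3K27me3 and H3K4me3 outside the rule was found at 1020 Jarid2-free regions (58.2%). The same share is not given for all EPOP regions, so nothing particular to Jarid2-free regions is read from it.

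In EPOP-depleted cells H3K4me3 width at the regions did not leave the gap between the lists without knock-down. By header name H3K4me3 replicate 1 is the hairpin control and replicate 2 the control of small interfering RNA, and replicate 2 was wider by a median log2 ratio of 0.17. Upon EPOP knock-down the median was 0.094 against replicate 1 and −0.074 against replicate 2. Upon EloB knock-down it was 0.039 against replicate 2, its control by name, and 0.21 against replicate 1. Over all EPOP regions the medians upon EloB knock-down were 0.038 and 0.20 in the same order, so nothing particular to Jarid2-free regions is read from them.

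The regions without H3K4me3 were mostly those beside Jarid2. In the list of replicate 1, H3K4me3 was found at 55.9% of regions under 1 kb from a Jarid2 peak, 81.3% at 1 to 10 kb, 97.3% at 10 to 100 kb and 98.2% beyond. In replicate 2 the shares were 66.1%, 93.3%, 99.5% and 99.7%, in the same order. Likewise, in the widest quartile of Suz12 regions H3K4me3 was found at 72.5% and 82.5% of Jarid2-free regions, against 96.1% and 99.2% in the narrowest. Nearly all Jarid2-free regions at 10 kb or more from Jarid2 thus carried H3K4me3, while the share was lower in both lists under 10 kb and lowest in the 59 regions under 1 kb, which lay on the widest Suz12 regions. The EPOP regions themselves had median widths of 1505, 1780.0, 1851.5 and 1845 bp from the nearest to the farthest bin.

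The Jarid2-free regions were found on all 19 autosomes and on X. Their share of the EPOP regions of a chromosome ranged from 22.1% on X (21 regions) to 36.4% on chromosome 11 (176 regions). No gene is assigned to a region and no sequence is shown, because the peaks are in mm9 coordinates and no annotation of that build was used here.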

How the data were processed

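Peak lists of 20 ChIP-seq samples were used. The deposited score of each peak is the authors' value, which the sources used here do not define. Peak names carry MACS per the file headers. The submitters' processing notes name mm9, Bowtie, TopHat and Cufflinks. The H3K27me3 list upon EPOP knock-down is named for a differently numbered hairpin than the other lists per the file headers, and the labels do not explain this. Lists hold 1 sample each.

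Peaks were merged, overlap was at least 1 bp, and scores were ranked within a list. A region's score is the highest of the peaks that touch it, and its width ratio uses the full summed width of those peaks, so a peak that spans several regions counts for each. The members and lists were chosen with earlier results of these data known. Named regions follow a rule: the 5 highest by EPOP rank, by H3K27me3 score and by Suz12 rank among regions lacking Suz12 or H3K27me3, the 5 lowest by EPOP rank, and the 3 nearest the rule's edge on either side; some are printed. No pairing check beyond replicate numbers was possible for peak lists; the numbers share an antibody lot for EPOP and EloB. Alternatives were a score of at least 100, overlap of 0.5 of the shorter interval, gaps of up to 1000 bp, autosomes and X alone, regions of either list, lists of equal length, ratios within replicate numbers and each replicate left out. Length within 5 kb, quartiles of EPOP rank and the split by distance to Jarid2 were added after the data were seen.

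Sequence and gene position were planned but not analysed here. Tools were bedtools 2.31.1, Matplotlib 3.10.9, SciPy 1.17.1, NumPy 2.4.6 and Python 3.11.15. Overlaps matched bedtools in 40 of 40 comparisons, and on simulated data the kept share of 1753 regions was recovered within 0.171 percentage points.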

Additional observations from a re-analysis of the deposited data

How the results depend on the processing

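Over 14 results and 182 alternative values, 147 stayed within the spread of the reported value and 35 did not. The number of regions has no spread and was counted as within it when inside 1.5-fold of the main number. For width ratios against 2 lists without knock-down the spread came from those lists, so leaving 1 of them out stayed within by construction. Autosomes and X alone changed no value. The count of 147 is therefore not read as a measure of stability. A score of at least 100 gave H3K27me3 at 70.6% without knock-down, 89.4% of it kept and a median log2 width ratio of 0.089, Suz12 kept at 98.2% upon EPOP and 98.7% upon EloB knock-down, and H3K4me3 kept at 100% upon EloB knock-down. Regions of either list gave 3857 regions, H3K27me3 at 55.8% without knock-down and 75.7% of it kept, H3K4me3 at 92.5% without and 99.5% kept upon EPOP knock-down, and Suz12 kept at 80.6% and 78.8%. Overlap of 0.5 and gaps of up to 1000 bp gave H3K27me3 at 73.5% and 79.6% without knock-down, and gaps gave H3K4me3 kept at 100% upon EloB knock-down. Lists of equal length gave Suz12 kept at 91.6% upon EPOP knock-down and no value for EPOP. The log2 width ratio of H3K27me3 by distance to Jarid2 was 0.54, 0.16 and −0.034 in the 3 nearer bins.

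With each replicate left out the regions numbered 1748 to 2420, H3K27me3 without knock-down was 69.5% to 77.0%, its kept share 81.1% to 84.3% and its width ratio 0.033 to 0.079. H3K4me3 was at 91.3% to 97.7% without knock-down, and kept at 98.6% to 99.9% upon EPOP knock-down. Suz12 was kept at 93.4% to 96.9% upon EPOP and 91.8% to 96.7% upon EloB knock-down. The largest number of regions and the lowest H3K27me3 share both came without EPOP replicate 2. The log2 ratio of EPOP covered length was −9.29, and −10.18 in the replicate block, which pairs lists by number; it was −11.98 without knock-down replicate 2 and −8.41 without knock-down replicate 1, the library with conflicting labels. No other paired fit was possible because the remaining targets had 1 knock-down list. Unknown depth limits every value: a missing peak does not measure the signal left.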

Other observations

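On chromosome X the Jarid2-free regions with an H3K27me3 peak numbered 5 of 21 without and 12 of 21 with EPOP knock-down (log2 ratio 1.26). On the autosomes the ratio ranged from −0.19 (chromosome 9, 81 and 71 of 105) to 0.090 (chromosome 16, 31 and 33 of 41). There is 1 list per condition, and the count on X is small.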
